A study of Caenorhabditis elegans with 2 samples.

Results

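Of the 1145 peaks in the conservative list of SAEG-2 binding in Caenorhabditis elegans, 328 (28.6%) had their summit 0 to 500 bp upstream of the nearest annotated 5′ end of a protein-coding transcript, measured on the strand of the gene. These 328 upstream peaks were chosen by position alone, from the peak summits of the deposited list and the Ensembl annotation of WBcel235, the same assembly as ce11. They lay upstream of 317 genes, and the other 817 peaks of the list served as their comparison. The material was whole L4 larvae of strain RW12230, collected at 48 h after bleaching and starvation at L1, in which a CRISPR insertion puts TY1, EGFP and 3xFLAG on SAEG-2 at its own locus. Chromatin was precipitated with an anti-GFP antibody in 2 biological replicates of this 1 group, and sequenced (ChIP-seq). Neither another genotype nor a control precipitation was analysed here, so binding of the tagged protein and a general signal of open chromatin cannot be told apart. The larvae hold all tissues, so the cells in which a site is bound cannot be told either, and read totals, and with them the depth, are unknown.

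In background, SAEG-2 works in the nucleus together with SAEG-1 and HDA-2, a histone deacetylase, and all 3 are known to be held in check by the cGMP-dependent kinase EGL-4. Histone deacetylases remove acetyl groups from histone tails, and their complexes are brought to promoters and enhancers by DNA-binding partners. The stretch just upstream of a coding 5′ end usually holds the promoter. In this worm many transcripts receive a spliced leader, so that an annotated 5′ end can mark the splice acceptor while transcription starts further upstream.

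The centres of the 12 upstream peaks with the highest signal value among those found in both replicates are printed here, in order of signal, because the results on strong peaks and on words of sequence turn on them. They are the strong end of the set and stand for no other peaks. Each runs from 50 bp before a summit to 50 bp after it, read 5′ to 3′ on the strand of the gene from the RefSeq copy of WBcel235 (ce11). Capitals mark the 10 words of 6 bases with the smallest p among those more frequent in peak centres than in their flanks, a comparison given later, on either strand. That display was chosen after those values were seen. The windows on the plus strand are chrIII:3867527-3867627 for rpl-3, chrIII:10759196-10759296 for tasp-1, chrIV:4750025-4750125 for Y17G9B.5, chrX:15841228-15841328 for serp-1.1, chrX:5841255-5841355 for puf-9 and chrIII:13643722-13643822 for set-16. Those on the minus strand are chrII:11759419-11759519 for F44E5.4, chrIV:654861-654961 for rpl-15, chrII:14561801-14561901 for mog-4, chrII:10563533-10563633 for cdc-48.1, chrV:10897321-10897421 for sec-61.G and chrII:10033633-10033733 for mtcu-2.
rpl-3: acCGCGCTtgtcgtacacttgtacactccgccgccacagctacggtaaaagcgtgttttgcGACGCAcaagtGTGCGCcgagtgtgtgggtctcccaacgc
F44E5.4: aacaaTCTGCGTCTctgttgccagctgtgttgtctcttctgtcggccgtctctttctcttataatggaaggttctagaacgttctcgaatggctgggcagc
tasp-1: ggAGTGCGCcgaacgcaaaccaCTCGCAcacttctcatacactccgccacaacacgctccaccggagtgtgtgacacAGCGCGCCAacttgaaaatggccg
Y17G9B.5: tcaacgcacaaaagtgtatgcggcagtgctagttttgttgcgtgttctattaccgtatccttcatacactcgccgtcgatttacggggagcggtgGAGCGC
rpl-15: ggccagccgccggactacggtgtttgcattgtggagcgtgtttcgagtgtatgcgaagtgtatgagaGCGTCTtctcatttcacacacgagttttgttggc
serp-1.1: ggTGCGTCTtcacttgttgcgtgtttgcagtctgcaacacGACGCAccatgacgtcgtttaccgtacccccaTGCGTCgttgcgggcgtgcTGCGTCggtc
mog-4: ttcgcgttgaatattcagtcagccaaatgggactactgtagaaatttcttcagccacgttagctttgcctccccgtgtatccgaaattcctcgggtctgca
cdc-48.1: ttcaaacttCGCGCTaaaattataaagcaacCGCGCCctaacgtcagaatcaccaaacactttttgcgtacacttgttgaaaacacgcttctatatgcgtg
puf-9: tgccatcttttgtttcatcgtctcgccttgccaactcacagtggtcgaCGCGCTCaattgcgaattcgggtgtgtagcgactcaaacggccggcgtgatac
sec-61.G: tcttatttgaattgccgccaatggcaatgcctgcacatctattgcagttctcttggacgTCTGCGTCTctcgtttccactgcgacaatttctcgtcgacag
set-16: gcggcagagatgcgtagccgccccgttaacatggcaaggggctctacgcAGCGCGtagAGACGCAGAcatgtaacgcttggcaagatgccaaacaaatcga
mtcu-2: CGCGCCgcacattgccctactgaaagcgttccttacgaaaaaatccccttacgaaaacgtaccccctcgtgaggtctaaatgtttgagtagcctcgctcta

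The words GACGCA and AGCGCG, or their complements, recur among these sequences, while the window of mog-4 holds none of the 10 words and those of Y17G9B.5, rpl-15 and mtcu-2 hold 6 capital bases each. GC content ranges from 41.6% at cdc-48.1 to 60.4% at serp-1.1.

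Upstream summits were most frequent in the second 100 bp from the 5′ end, which held 99 of the 328, and became fewer towards the limit of 500 bp. The median distance was 203 bp, with quartiles at 117.5 and 310.25 bp. The mirrored stretch of 1 to 500 bp downstream of a 5′ end held 96 summits, 28 of them in the first 50 bp. Signal values, which are the authors' own and whose scale the sources used here do not state, showed no steady order with distance. The median was 105.8 over all upstream peaks. The lowest and the highest median of the 50 bp bins were neighbours, 88.6 at 0 to 50 bp (34 peaks, 8 of them thresholded in both replicates) and 128.5 at 51 to 100 bp (30 peaks, 16 in both). Beyond 100 bp the bins had medians between 97.6 and 114.6. At the edge of the rule, the peaks just inside 500 bp belonged to R11A5.6 (500 bp, signal value 125), tent-5 (496 bp, 97.6) and elt-2 (495 bp, 92.8). The gene elt-2 encodes the GATA factor of the intestine. Just outside lay the peaks of W07E11.1 (503 bp, 133), C33B4.4 (506 bp, 111) and Y41C4A.22 (513 bp, 79.3). At the other edge, Y73B6BL.29 (2 bp, 70.6), pdi-2 (10 bp, 76.9) and cyp-35C1 (15 bp, 81.5) were inside. The peaks of hst-2 (111) and ttr-37 (87.7), each 1 bp downstream of the 5′ end, and of sto-4 (3 bp downstream, 6.37) were outside.

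**Figure D1:**
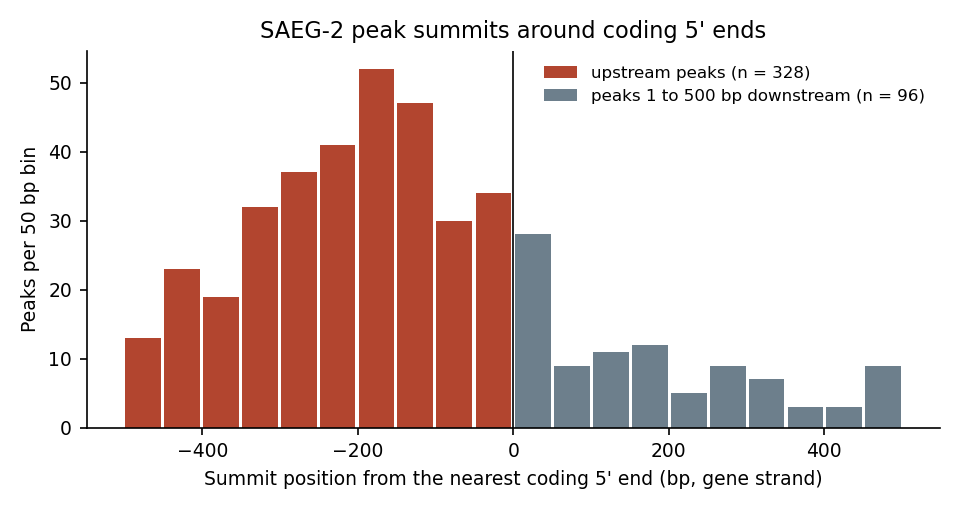
Number of peak summits per 50 bp bin by position from the nearest coding 5′ end in bp on the gene's strand, for the 328 upstream peaks (left of 0) and the 96 peaks 1 to 500 bp downstream (right of 0). Upstream bins rise to 52 summits between 151 and 200 bp and end at 13 between 451 and 500 bp, while downstream the first bin holds 28 and no other more than 12.

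Most upstream summits were in intergenic sequence (235, 71.6%). Exons of genes not annotated as protein-coding held a further 47 (14.3%) and introns 34 (10.4%), and coding exons, 5′ UTRs and 3′ UTRs held 4 each. For 289 peaks the nearest 5′ end was the outermost one of its gene, while 39 lay upstream of an internal 5′ end and so inside the gene. The internal ones had a median signal value of 95.05, and 9 of the 39 overlapped a thresholded peak in both replicates.

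Both replicates gave a value for nearly all upstream peaks. An overlapping peak in the longer ranked list of each replicate was found in both for 326 of the 328, with signal values of 30.3 to 267 (median 49.7) in replicate 1 and 33.0 to 328 (median 57.4) in replicate 2. The value was higher in replicate 2 for 222 of the 326. Across these 326 peaks the log2 signal values of the replicates had a Pearson correlation of 0.735 and the signal values a Spearman correlation of 0.540. Both describe peaks of the same 2 libraries. Summits were close: the median shift between replicates was 25 bp, and 247 of 326 moved by at most 50 bp. With the replicates' own summits, 302 peaks still met the rule in both. The conservative list was thresholded by the irreproducible discovery rate (IDR), which favours peaks ranked alike between peak sets. Agreement of the replicates is thus partly built into the choice of these peaks, and these values only describe it.

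The replicates' own thresholded lists were shorter than the conservative list and held fewer of these peaks. Of the 328, 147 overlapped a thresholded peak in replicate 1 and 164 in replicate 2. Both lists held 107 of them, 40 were in that of replicate 1 alone, 57 in that of replicate 2 alone, and 124 (37.8%) in neither. With the peaks ranked by signal value in 4 sets of 82, 77 of the strongest set were in both (93.9%, 95% Wilson interval 86.5 to 97.4), then 27 and 1, and 2 of the weakest set. A peak's signal in the conservative list rests on the reads of both replicates, so this order is a description of 1 set of reads.

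**Figure D2:**
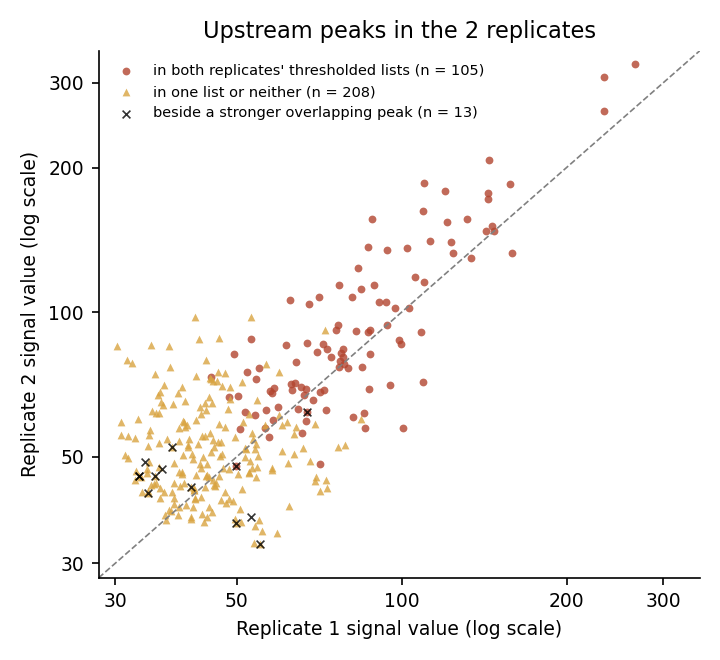
Signal value of each upstream peak in replicate 1 (x axis) and replicate 2 (y axis), both on a log scale, with the line of equal values dashed. Circles are peaks in both replicates' thresholded lists, triangles are peaks in one list or neither, and crosses are the peaks beside a stronger overlapping peak. The values run from 30.3 to 267 in replicate 1 and from 33.0 to 328 in replicate 2, and 222 of 326 points lie above the line.

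The weakest upstream peaks were mostly second peaks beside a stronger one. For 14 upstream peaks the list held an overlapping peak of higher signal with its summit 199 to 218 bp away, and these 14 had signal values between 3.06 and 35.6. They made up 13 of the 14 upstream peaks with a signal value under 30. In each replicate such a pair can overlap the same single peak, so the replicate values of the weaker one are not its own. The lowest were vha-13 (signal value 3.06, beside a peak of 96.7), smr-1 (4.64, beside 92.2) and T12G3.2 (6.30, beside 86.6). The gene vha-13 encodes a subunit of the vacuolar proton pump. In all, 10 genes had more than 1 upstream peak. For 8 of those 10, F13C5.2, ZK1290.5, cyp-35C1, din-1, gpa-1, pde-4, pro-1 and smr-1, the second peak was such a neighbour. At tent-5 that held for 1 of 3 peaks, and T26A8.4 had peaks at 2 different 5′ ends (125.8 and 108).

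Set against the other 817 peaks of the list, the upstream peaks were stronger and more often found in both replicates. A signal value in the top 25% of the list (at least 125.8) was held by 102 of 328 upstream peaks (31.1%) and 185 of 817 other peaks (22.6%), an odds ratio of 1.54 (Fisher's exact test, two-sided, adjusted over the 7 properties tested, p = 0.00458). An overlap with a thresholded peak in both replicates was found for 107 upstream peaks (32.6%) and 194 other peaks (23.7%), an odds ratio of 1.55 (Fisher's exact test, adjusted p = 0.00458). A −log10 IDR at the cap of 5, the most reproducible ranking that the lists record, was reached by 15 upstream peaks (4.57%) and 21 other peaks (2.57%), and the odds ratio of 1.82 did not pass the test (Fisher's exact test, adjusted p = 0.107). These 3 measures draw on the same signal and are not independent of each other, and neighbouring peaks are not independent either. In the thresholded list of replicate 1 alone the odds ratio for the top 25% was 1.12 (Fisher's exact test, adjusted p = 0.779), and in that of replicate 2 alone it was 1.27 (adjusted p = 0.371). With a distance limit of 250 bp the first and second of these differences did not pass, with odds ratios of 1.47 and 1.40 (Fisher's exact test, adjusted p = 0.0601 and 0.0934).

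The place of the upstream peaks in the genome is tied to the rule, which chose them by position, so it is described with no p given. Small RNA genes, X and the outer parts of autosomes still count among the 7 properties adjusted over. Of the upstream peaks 22 (6.71%) lay within 100 bp of a tRNA, snRNA, snoRNA, miRNA or SL RNA gene, against 177 of the other peaks (21.7%). On the X chromosome lay 50 upstream peaks (15.2%) and 219 other peaks (26.8%). As a background, a point 203 bp upstream of every coding gene's outermost 5′ end met the rule for 19414 genes. Of these points 13.97% lay on X and 0.381% within 100 bp of a small RNA gene. The share of upstream peaks on X was thus near that of promoters in general, and the share beside small RNA genes was above it, though below that of the other peaks. By chromosome, upstream peaks made up between 27.9% (III) and 36.6% (V) of the peaks on each autosome and 18.6% of those on X. In the outer 25% of an autosome at either end lay 111 of 278 autosomal upstream peaks (39.9%) and 248 of 598 other peaks (41.5%).

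**Figure D3:**
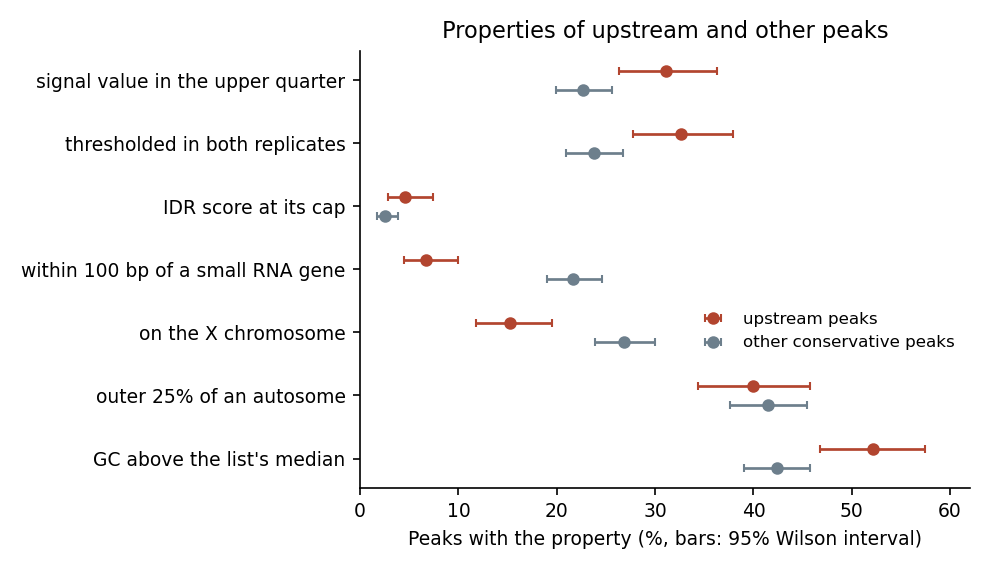
Share of peaks with each of 7 properties, in percent, for the 328 upstream peaks (red, upper point of each pair) and the 817 other conservative peaks (grey, lower point). Bars are 95% Wilson intervals and reflect counting error alone. The intervals of both kinds of peak overlap for the IDR cap and for the outer 25% of an autosome and stay apart for the other 5 properties. Small RNA genes (6.71% against 21.7%) and the X chromosome (15.2% against 26.8%) are tied to the position that chose the peaks.

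The 22 upstream peaks beside a small RNA gene included 11 at tRNA genes, 9 at snoRNA genes and 2 at snRNA genes, and in 10 of them the summit lay inside the small RNA gene itself. For these peaks the target cannot be told from position. The strongest was nearest to Y75B12B.11 (signal value 190.4, 81.1 in replicate 1 and 108 in replicate 2), 15 bp from a snoRNA gene. Next came kvs-3 (136), which encodes a potassium channel subunit and whose peak lay inside a tRNA gene, srh-70 (136), a chemoreceptor gene, and cfim-2 (134). The gene cfim-2 encodes a subunit of the pre-mRNA cleavage factor. Of the 22, 5 overlapped a thresholded peak in both replicates.

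Many upstream peaks lay between 2 genes that point away from each other. A second coding 5′ end on the other strand was found within 1000 bp on the far side of the summit for 94 of the 328 (28.7%), and within 500 bp for 62. The rule itself favours this arrangement, so no test against the other peaks is given. Of the 19414 points at the median distance, 18.8% had such a second 5′ end. The 94 peaks had a median signal value of 118.6, against 103.8 for the 234 with a single gene, and 41 of the 94 (43.6%) overlapped a thresholded peak in both replicates, against 66 of the 234 (28.2%). The strongest was the peak shared by F44E5.4 and F44E5.5, HSP70-family genes induced by heat that point away from each other, 158 and 193 bp from their 5′ ends. The peaks of tasp-1, Y17G9B.5, rpl-15 and set-16 came next, with K01G5.10, rpl-20, K11H12.8 and drr-2 on the far side.

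The strongest upstream peaks in both replicates lay at genes of mixed functions. The gene rpl-3, for a protein of the large ribosomal subunit, had the highest signal value of the whole list, 589 (267 in replicate 1 and 328 in replicate 2), with its summit 277 bp upstream (chrIII:3867464-3867681). F44E5.4 followed with 540 (234 and 309, chrII:11759326-11759635) and tasp-1, the homologue of a threonine protease that cleaves nuclear proteins, with 485 (234 and 262, chrIII:10759117-10759362). A gap separated these from the next, Y17G9B.5, whose peak of 360 (144 and 208) also faced rpl-20, 297 bp to the far side. Then came rpl-15 (346; 158 and 185), serp-1.1 (326; 144 and 177), whose product is a small protein of the endoplasmic reticulum membrane, and mog-4 (318; 144 and 172), a splicing helicase that acts in germline sex determination. The remaining 5 of the 12 strongest had values between 290.1 and 296.9. They were cdc-48.1 (296.9; 120.0 and 178.5), the p97 segregase, puf-9 (294.8), a Pumilio-family RNA-binding protein, sec-61.G (294.8), a subunit of the translocon, set-16 (294.2), an MLL-like histone methyltransferase shared with drr-2, and mtcu-2 (290.1), which modifies mitochondrial tRNA. Replicate 2 gave the higher value at each of those 12 except sec-61.G, where both replicates gave 147.5 to the first decimal.

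Ribosomal protein genes had the largest share of members with a peak among the lists at the limit of 500 bp, an order that depends on that limit. An upstream peak was found at 13 of 81 genes for cytosolic ribosomal proteins (16.05%, 95% Wilson interval 9.63 to 25.5), while over all 19973 protein-coding genes the share was 1.59%. The 13 had a median signal value of 148, against 105.8 for all upstream peaks. After rpl-3 and rpl-15 the highest were rpl-7A (279.8; 121 and 154) and rpl-35 (268; 123 and 139.7). The rule applied to the replicates' own lists found 9 ribosomal protein genes in replicate 1, where the share of all coding genes was 0.781%, and 9 in replicate 2, where it was 0.861%. A further 6 ribosomal protein genes lay on the far side of an upstream peak, among them rpl-20 and rps-19. None of 70 genes for mitochondrial ribosomal proteins had one. With a limit of 250 bp, 5 of 81 ribosomal protein genes had an upstream peak (6.17%), below chaperones (6 of 69, 8.70%), translation factors (4 of 48, 8.33%) and nuclear pore genes (2 of 26, 7.69%). With a limit of 1000 bp the count was 13 again, and histone acetyltransferase and bromodomain genes were above it with 5 of 21 (23.8%).

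Translation factors had peaks at 5 of 48 genes (10.4%, interval 4.53 to 22.2). The replicates' own lists gave 4 in replicate 1 and 5 in replicate 2. The highest were eef-2 (202; 108 and 90.9), the elongation factor that moves the ribosome along the message, iff-2 (193; 93.9 and 94.0), which encodes eIF5A, eef-1G (154.5; 78.3 and 80.7) and eef-1A.2 (138; 70.9 and 68.1). These 4 were thresholded in both replicates, and eif-3.C (84.9) was not. Aminoacyl-tRNA synthetases had 1 of 31, aars-1 (76.0).

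Chaperone genes had peaks at 7 of 69 (10.1%, interval 5.00 to 19.5), and 10 more lay on the far side of an upstream peak. Over all coding genes, 92 (0.461%) lay on the far side of an upstream peak without having one of their own. Among the 7, the highest were hsp-3 (248; 102 and 136), an HSP70 of the endoplasmic reticulum, dnj-13 (209; 103 and 102), an HSP40 cochaperone, dnj-9 (181; 86.7 and 91.2) and hsp-1 (159; 78.7 and 78.1), the constitutive HSP70. The small heat shock gene hsp-16.41 shared a weaker peak (87.9; 47.7 and 40.2) with hsp-16.2, its divergent neighbour. The far-side genes included hsp-60, the mitochondrial chaperonin, across from Y22D7AL.10 (286; 132 and 156), cct-8, a subunit of the cytosolic chaperonin (269; 109 and 162), hsp-90 (182; 99.7 and 85.8) and hsp-110 (135; 62.8 and 70.9). In all, 16 upstream peaks had a chaperone gene on one side or the other.

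Of these 16 peaks, 8 held GAANNTTC within 50 bp of the summit, a palindrome that is part of the heat shock element, which the heat shock factor HSF-1 binds. It was searched on both strands. Over all upstream peaks the share was 7.01% (23 of 328), over the other peaks 6.85%, and over windows of the same length centred 203 bp upstream of all 19973 coding genes 6.82%. The 16 were picked for their genes, not for their sequence, and the comparison is a description. F44E5.4, which the list did not hold, had 2 such palindromes. With GAANNTTC in capitals, 3 of the windows read as follows, on the strand of the gene named, dnj-13 at chrII:11545470-11545570 (plus), the peak between rpn-3 and hsp-110 at chrIII:8447097-8447197 (plus), and F44E5.4 as located before.
F44E5.4: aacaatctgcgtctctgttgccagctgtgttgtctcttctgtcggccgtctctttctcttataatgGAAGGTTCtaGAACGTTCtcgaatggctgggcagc
dnj-13: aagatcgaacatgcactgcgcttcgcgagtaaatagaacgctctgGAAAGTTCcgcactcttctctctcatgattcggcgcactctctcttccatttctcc
rpn-3: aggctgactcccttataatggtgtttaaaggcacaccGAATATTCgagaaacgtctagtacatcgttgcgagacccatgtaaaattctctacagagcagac

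The other lists for general cell functions had few genes with an upstream peak. Nuclear pore genes had 3 of 26 (11.5%, interval 4.003 to 29.0), namely npp-18 (121), npp-3 (120.0) and npp-8 (109). Of these npp-3 alone was thresholded in both replicates, and the replicates' own lists gave 2 genes in replicate 1 and 1 in replicate 2. Oxidative phosphorylation had 4 of 69 (5.80%, interval 2.28 to 13.98). These were the cytochrome oxidase subunit genes cox-5A (289; 159 and 133) and cox-5B (146; 74.3 and 80.6), sdha-1 (105.0), for a subunit of succinate dehydrogenase, and cyc-2.1 (73.9), for cytochrome c. The 2 cytochrome oxidase genes were thresholded in both replicates and the other 2 were not. The summit of sdha-1 lay 3 bp from a snoRNA gene. The peak of cyc-2.1 lay in an intron upstream of an internal 5′ end, and with only outermost 5′ ends this list had 3 of 69. Membrane traffic had 6 of 129 (4.65%, interval 2.15 to 9.78). After sec-61.G its genes were weak, with vps-4 (104), an ATPase of endosomal sorting, apb-1 (97.1), an adaptin, and sec-3 (88.4), of the exocyst, and none of these 3 was thresholded in both replicates.

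Replication and cell cycle genes had 3 of 79 (3.797%), cdc-48.1 among them, followed by pcn-1 (163; 84.8 and 76.7), the sliding clamp, and mcm-3AP (86.4). The vacuolar ATPase had 2 of 22, vha-12 (114) and the weak second peak of vha-13. The ubiquitin system had 2 of 70, the conjugating enzyme genes ubc-6 (144) and ubc-3 (114.1), both thresholded in both replicates. RNA polymerases and Mediator had 2 of 65, rpb-11 (113.7), a subunit of RNA polymerase II, and taf-4 (112), of the general factor TFIID. Splicing factors had 2 of 98, mog-4 and the Sm protein gene snr-4 (92.0), and the proteasome 1 of 33, rpn-3 (135). The summit counted for snr-4 lay inside an snRNA gene, so its target cannot be told from position. Of all 28 lists, 7 had an interval wholly above the share of all coding genes, 1.59%, 2 had one wholly below it, and 19 had one that held it. The 7 were cytosolic ribosomal proteins, translation factors, chaperones, oxidative phosphorylation, the vacuolar ATPase, the nuclear pore and membrane traffic. Of these, the vacuolar ATPase reached 2 genes only through the weak second peak of vha-13. Neither of its peaks was thresholded in both replicates, and in the non-conservative list it had 1 gene of 22. Oxidative phosphorylation had 3 of 69 with only outermost 5′ ends, a count for which no interval was computed. The lists were gathered by gene symbol and the intervals cover counting error only.

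**Figure D4:**
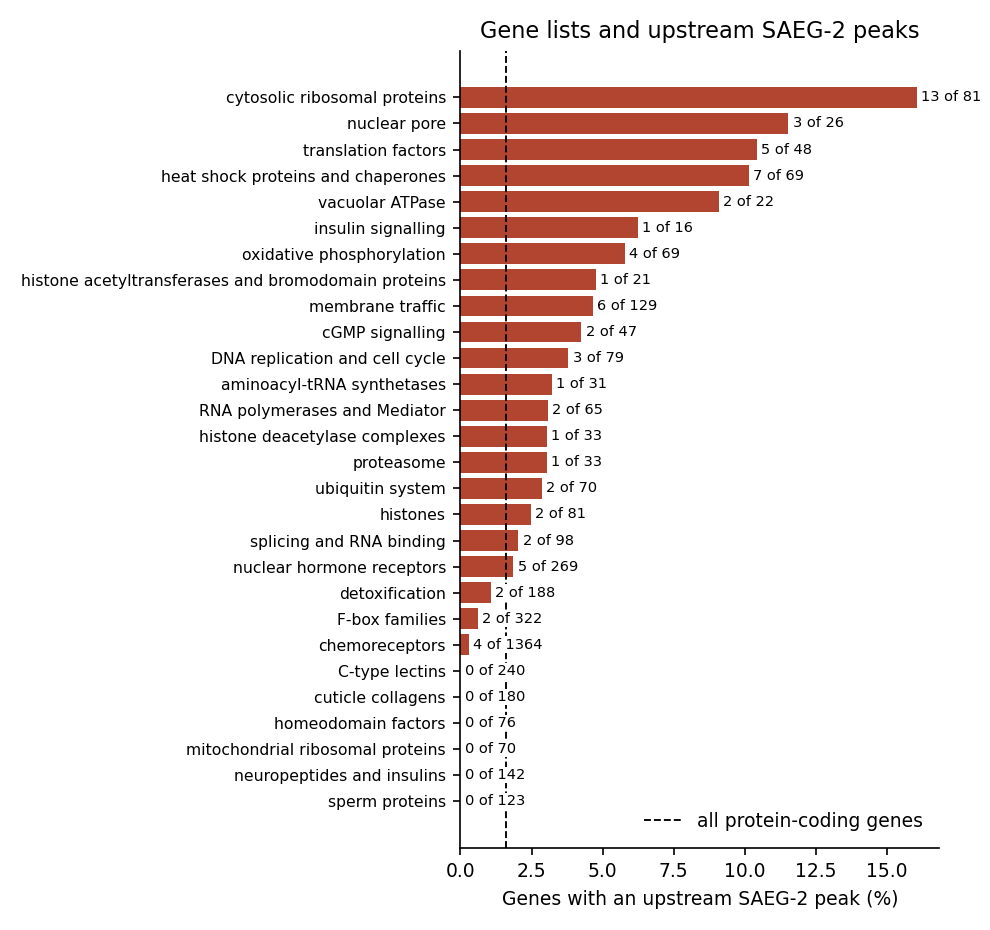
Share of genes with an upstream SAEG-2 peak, in percent, for each of 28 gene lists, with the number of genes beside each bar. The dashed line is the share over all protein-coding genes, 1.59%. Cytosolic ribosomal proteins are at the top with 13 of 81, and 6 lists have none.

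Lists for chromatin and for SAEG-2's own pathway had 1 or 2 genes each. The gene saeg-1, whose product acts with SAEG-2, had an upstream peak (chrV:10855373-10855676, signal value 101.2, 43.4 in replicate 1 and 50.03 in replicate 2). It was in neither replicate's thresholded list. It lay in an intron, 284 bp upstream of an internal 5′ end, and would not count if only outermost 5′ ends were used. No upstream peak was found at saeg-2, hda-2 or egl-4. Of 33 genes of histone deacetylase complexes saeg-1 was the only one, and lin-53, for a histone-binding subunit shared by several complexes, lay on the far side of the peak of nra-2 (172; 87.4 and 81.7). Of 21 genes of histone acetyltransferases and bromodomain proteins, hat-1 had a peak (197.5; 77.0 and 114). Of 81 histone genes 2 had one, the histone H4 gene his-37 (248; 112 and 141) and his-62 (88.8; 45.1 and 38.4), which was not thresholded in both replicates. Of 47 genes of cGMP signalling, pde-12 (94.7) and pde-4 (71.2) had peaks, both for phosphodiesterases, and neither was in both replicates' thresholded lists. Like the peak of saeg-1, that of pde-4 lay in an intron upstream of an internal 5′ end. With only outermost 5′ ends, 1 gene of this list had a peak. The gene daf-16, for the FOXO factor of insulin signalling, had a peak of 97.8 (39.3 and 57.4), in neither replicate's thresholded list.

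Among the lists for tissue-specific or fast-evolving gene families, chemoreceptors and C-type lectins had shares with an interval below the 1.59% of all coding genes. Chemoreceptors had 4 of 1364 (0.293%, interval 0.114 to 0.752), srh-70 (136), srh-2 (126), srh-269 (105.3) and sri-5 (88.3). Of these srh-70 and srh-269 were within 100 bp of a small RNA gene, and srh-2 alone was thresholded in both replicates. The rule applied to the replicates' own lists found 4 chemoreceptor genes in replicate 1 and 0 in replicate 2. C-type lectins had 0 of 240 (interval 0 to 1.58). For the other families the interval held the share of all coding genes, so their counts cannot be told from it. F-box families had 2 of 322 (0.621%, interval 0.170 to 2.24), fbxb-85 (140.3) and fbxb-72 (118), and detoxification genes 2 of 188 (1.06%), gst-27 (93.8), for a glutathione S-transferase, and cyp-35C1 (81.5), for a cytochrome P450. The summit counted for gst-27 lay 14 bp from a snoRNA gene. No upstream peak was found at 142 neuropeptide and insulin genes, 180 cuticle collagen genes, 123 sperm protein genes or 76 homeodomain genes. Nuclear hormone receptors had 5 of 269 (1.86%), with nhr-47 (137; 72.2 and 69.0), whose peak also faced dnj-19, nhr-35 (118), nhr-57 (94.5) and nhr-1 (91.5) the highest.

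The replicates differed by more than 2-fold, after division by their medians over the upstream peaks, at 6 peaks. Those named next are the 3 highest and 3 lowest ratios. They are not the same 6, as sri-5 and din-1 were under 2-fold. The ratio of replicate 1 to replicate 2 was highest at scpr-1 (2.03; 100.6 in replicate 1 and 57.3 in replicate 2), sri-5 (1.96; 59.1 and 34.8) and din-1 (1.96; 73.0 and 43.0). It was lowest at E01G4.3 (0.412; 30.3 and 84.9), T28F4.4 (0.457; 31.5 and 79.4) and rps-24 (0.472; 34.9 and 85.2). Among these named peaks, scpr-1 alone was in both replicates' thresholded lists.

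The centres of the upstream peaks were rich in G and C. The stretch within 50 bp of the summit had a median GC content of 49.5%, against 47.5% at the other peaks, and 171 upstream peaks (52.1%) and 346 other peaks (42.4%) were above the median of the list, an odds ratio of 1.48 (Fisher's exact test, adjusted p = 0.00458). Windows of the same length centred 203 bp upstream of all coding genes had a median of 33.7%, and 311 of the 328 upstream peaks were above it. The stronger upstream peaks had more, with a median of 52.0% in the strongest set of 82 and 45.5% in the weakest. The difference from the other peaks did not pass the test in replicate 1's own list (odds ratio 1.31, adjusted p = 0.400 by Fisher's exact test), in replicate 2's (1.32, adjusted p = 0.285) or with a limit of 250 bp (1.18, adjusted p = 0.438). Shearing, amplification and open chromatin can depend on base composition, and their part in these values was not tested.

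**Figure D5:**
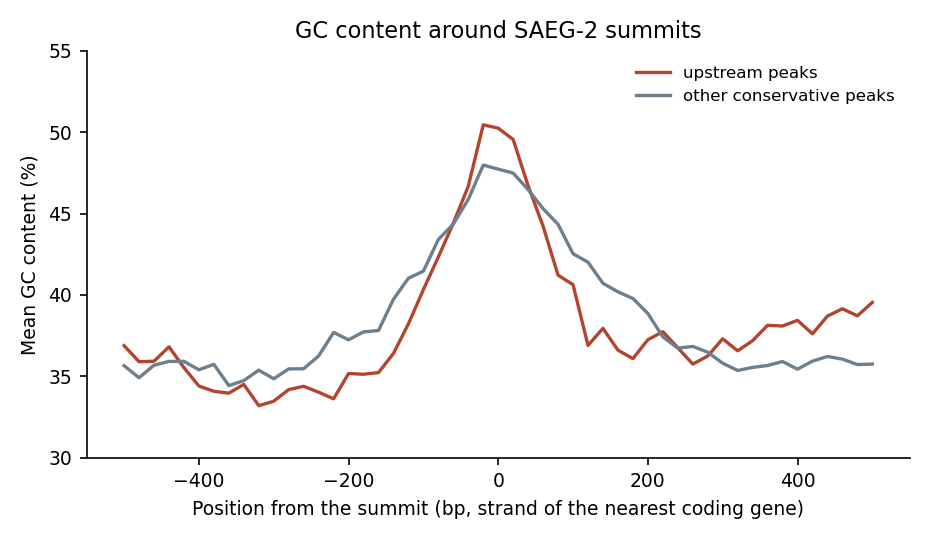
Mean GC content in percent by position from the summit in bp, on the strand of the nearest coding gene, for the 328 upstream peaks (red) and the 817 other conservative peaks (grey). The upstream peaks reach 50.5% at 20 bp before the summit, where the other peaks reach 48.0%, and both curves fall on either side.

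Words of 6 bases at the centre went with this composition. Of 2080 words, each taken with its reverse complement, 164 (7.88%) were in more centres than flanks and 130 (6.25%) in more flanks than centres (exact binomial McNemar test, two-sided, adjusted p at or under 0.05). Of the 164 centre words, 137 had at least 4 G or C among their 6 bases, and of the 130 flank words, 127 had at most 2. The centre word with the smallest p was GAGCGC, in the centres of 49 peaks (14.9%) and the flanks of 3 (0.915%; exact test, adjusted p = 7.23e-09). GACGCA was in 59 centres and 9 flanks (adjusted p = 1.45e-08), CGCAGA in 55 and 7 (adjusted p = 1.45e-08) and AGCGCG in 39 and 1 (adjusted p = 2.59e-08), all by the same exact test. CTCGCA was in 34 centres and no flank. Some of these words overlap in sequence, as GACGCA and AGACGC do in their shared bases, so they are not separate observations. They are the capitals in the sequences printed above, where the window of serp-1.1 has GACGCA or its complement 4 times. Among the other peaks GAGCGC was in 5.63% of centres and 2.45% of flanks, and GACGCA in 8.57% and 3.79%. Whether these shares differ from those at upstream peaks was not tested.

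The counts moved step by step with the number of G and C in a word. Of 492 words with 2 G or C, 2 were centre words and 22 flank words, of 640 words with 3, 25 and 2, and of 492 words with 4, 69 and 1. The flanks were poorer in G and C than the centres, so words with 3 go with composition too, and its part in any single word was not tested. Some words with 3 are given next. ACCGTA was in 35 centres (10.7%) and 7 flanks (2.13%; exact binomial McNemar test, adjusted p = 0.000348). In the 107 upstream peaks thresholded in both replicates it was in 20 centres and no flank (adjusted p = 0.000441 by the same exact test). It was a centre word in the own lists of both replicates too, with 15.1% of centres in replicate 1 and 13.6% in replicate 2. GAGAGA was in 65 centres (19.8%) and 29 flanks (8.84%; adjusted p = 0.00217 by the exact test), and ACACTC in 34 and 11 (adjusted p = 0.00742). Of the 164 centre words, 52 were centre words in both replicates' own lists of upstream peaks, with 159 and 177 peaks, and 90 were centre words at the other peaks. The 3 words of this paragraph were chosen after their values were seen.

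Known motifs were searched in the same central windows, on both strands. GAGAGA, the core of the GAGA element, was in 19.8% of upstream peaks, 16.6% of other peaks and 7.40% of windows upstream of all coding genes. The Sp1 site GGGCGG was in 7.62%, 5.51% and 2.25%, in the same order. The E-box CACGTG was in 3.96%, 7.34% and 1.53%. The core of the tRNA B box, GTTCNANNC, an internal promoter of tRNA genes, was in 4.57% of upstream peaks, 14.7% of other peaks and 3.08% of windows. Some motifs rich in A and T were less frequent at upstream peaks than in windows at large. The T block TTTTTTTT was in 2.44% of upstream peaks, 3.92% of other peaks and 13.0% of windows, TATAAA in 6.402%, 5.02% and 13.1%, and TTTGAA, the CHR element, in 16.5%, 11.6% and 29.8%. The GATA site TGATAA differed little, with 10.4%, 10.6% and 11.1%. The FOXO site TGTTTAC was in 1.22%, 1.47% and 1.63%, and CCAAT in 15.5%, 16.03% and 18.4%. These motifs share letters with words of the composition described above, and a match is not a bound site.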

How the data were processed

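ChIP-seq peak lists of whole L4 larvae in 2 biological replicates were used. Per the labels, the deposited lists are on ce11. Per the file headers, no column is named, so the signal value (a signal whose scale is not stated), the summit offset and the −log10 IDR were read from the order of columns in the deposited files. IDR is the irreproducible discovery rate, lower where a peak's rank is more alike between peak sets. The authors called the conservative list on both replicates together and each replicate's lists on its own. No aligner, peak caller or IDR threshold is named in the labels or files analysed here. The deposited summit offset, in bp, gave the summit.

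Distances were taken to 29314 annotated coding 5′ ends of 19973 genes (Ensembl release 115), and sequence from the RefSeq copy of WBcel235. A replicate's value is the signal of its overlapping ranked peak (at least 1 bp) with the nearest summit. Upstream and other peaks were compared by a two-sided Fisher's exact test, and p-values were adjusted over 7 properties after Benjamini and Hochberg. Of these, small RNA genes, X and the outer parts of autosomes are tied to the position that chose the peaks and are given with no p, and so is an 8th, the second 5′ end. By the same Fisher's exact tests adjusted over the other 4 alone, a choice made after the data were seen, signal, both replicates and GC content each had p = 0.00436 and the IDR cap 0.0917. Words of 6 bases within 50 bp of the summit were set against flanks 200 to 252 bp from the summit (exact binomial McNemar test, adjusted over 2080 words). Python 3.11.15, scipy 1.17.1, numpy 2.4.6, pandas 2.3.3 and matplotlib 3.10.9 were used, and the rule and both tests were tested on simulated data. Simulated centres and flanks had the same base composition, so that check does not cover the difference in GC content between centres and flanks here. Intervals are 95% Wilson intervals and cover counting error only.

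The members, the 28 gene lists, the 15 motifs and the tests were chosen with earlier results of these data known. Named were the 12 strongest members in both replicates, the 3 weakest, those at the edges of the rule, the 4 strongest of each list, the 5 strongest with a divergent gene, the 3 highest and 3 lowest replicate ratios, the 4 strongest beside a small RNA gene, genes with more than 1 member, and saeg-1, saeg-2, hda-2 and egl-4. Other genes named, such as those on the far side of a peak, were chosen after their values were seen. No sequence of chromosome I was printed. Alternatives covered the distance limit, the 5′ ends, the peak list, each replicate alone, the overlap, the small RNA genes, the comparison peaks and the word window. Leaving out peaks beside a stronger overlapping peak was added after the data were seen.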

Additional observations from a re-analysis of the deposited data

How the results depend on the processing

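With a limit of 250 bp, the odds ratios for the top 25% of signal, for both replicates and for GC content were 1.47, 1.40 and 1.18 and no longer passed. The share of the list was then 17.8%, the genes 202, the centre words 57 and the share with a second 5′ end 35.3%. A limit of 1000 bp gave a share of 37.7% and a second 5′ end at 23.1%. With only outermost 5′ ends the share was 25.5%, and the odds ratio for IDR at its cap, 2.15, passed the test. It also did, at 2.55, against other peaks at most 2000 bp from a 5′ end. Among peaks at or above the median signal value, the odds ratios for the top 25%, both replicates and GC content were 1.01, 1.08 and 1.25 and did not pass, the share was 35.4% and the genes 201. The odds ratio for the outer parts of autosomes, given with no p, was 0.938 and turned to 1.10 there. It was 1.01 against other peaks at most 2000 bp from a 5′ end and, leaving out each replicate, lay between 0.953 and 1.28. Without peaks near small RNA genes the share was 32.8%. A centre of 61 bp gave 88 centre words, and peaks in both replicates alone gave 46. Leaving out each replicate gave odds ratios of 1.12 to 1.27 for the top 25% and 1.31 to 1.32 for GC content, shares of 32.7% to 35.2%, 156 to 172 genes and 70 to 81 centre words. An overlap in both replicates cannot be computed from 1 replicate. Leaving out peaks beside a stronger overlapping peak changed no call of the property tests. It did lower counts of gene lists. Ribosomal protein genes with an upstream peak were then 12 of 81 (14.8%), without rla-1 (signal value 14.5), and the vacuolar ATPase lost vha-13. The shorter lists hold fewer peaks, and the cause of these shifts was not tested. No paired analysis was possible because there is 1 group of samples. Depth is unknown, so a gene without a peak is not shown to be unbound.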
